A study of Homo sapiens with 12 samples.

Results

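The respiratory chain subunits described here are the products of 79 nuclear genes, of 10940 genes in the count table. They were chosen by symbol. The symbols begin with NDUFA, NDUFB, NDUFC, NDUFS or NDUFV and a number (complex I, 36 genes), are SDHA to SDHD (complex II, 4 genes), or begin with UQCR (complex III, 9 genes), with a numbered COX prefix (complex IV, 11 genes) or with the ATP synthase prefix ATP5 (complex V, 19 genes). Of these, 78 passed the filter on low counts and were tested. ATP5MGL, a near copy of ATP5MG, did not pass and had between 1.54 and 5.12 CPM in the 12 libraries. CPM are a gene's counts relative to its library's total after that total was rescaled by TMM factors. The name rule also takes in NDUFB4P12, whose symbol marks a pseudogene, and UQCRHL, a near copy of UQCRH. Reads of NDUFB4 and NDUFB4P12, of UQCRH and UQCRHL, and of ATP5MG and ATP5MGL may be divided uncertainly between them. It further takes in ATP5IF1, which inhibits the ATP synthase, and NDUFA4, which carries a complex I name but is now placed with complex IV. The subunit genes CYC1 and NDUFAB1 fall outside the patterns and are counted with the carriers below, and the mitochondrially encoded subunits are not analysed here.

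HepG2 is an established human line from a liver cancer, here of wild-type genotype, and all cells came from cultures kept in EMEM (Eagle's minimum essential medium) with serum, pyruvate and glutamine. At 24 h after seeding they received EMEM, Plasmax (a medium modelled on the nutrients of human plasma), Plasmax prepared without trace elements (Plasmax-TE) or that last medium with iron added back (Plasmax-TE+Fe). All 4 media held 10% heat-inactivated fetal bovine serum, which can itself carry trace elements. Medium was renewed at 48 h, cells were harvested at 96 h, and 3 libraries per medium were made from the 3′ ends of messenger RNA. Whether libraries of 1 medium stem from separate cultures is not stated, so the p-values cover only the spread among these libraries, which may be technical.

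Complex I takes electrons from NADH, and complex II, which is also the succinate dehydrogenase of the citric acid cycle, takes them from succinate. Both hand them to coenzyme Q, complex III passes them on to cytochrome c, and complex IV gives them to oxygen. Complexes I, III and IV pump protons across the inner mitochondrial membrane, and the ATP synthase, complex V, uses the gradient to make ATP. The complexes carry iron-sulfur clusters (I, II and III), hemes (II, III and IV) and copper centres (IV), which makes these enzymes clients of cellular iron and copper supply. The core subunits are joined by many supernumerary subunits that carry no redox centre.

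Total counts ran from 1562125 to 2384090 per library, and the subunit genes took 1.34% to 1.71% of all counts. With the rescaled totals 1 count was worth 0.426 to 0.642 CPM. All 8 hepatocyte markers were present, with a summed level between 10140 and 38070 CPM. Of the fibroblast markers only COL1A1 was in the table (0.514 to 8.01 CPM), of the leukocyte markers only CD68 (0.996 to 6.17 CPM), and of the 3 endothelial markers none. In a bulk library, fewer cells that express a gene and less RNA per cell cannot be told apart.

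The library numbered 87, replicate 1 of Plasmax-TE, and the one numbered 88, replicate 2 of Plasmax-TE+Fe, stood apart from the other 4 libraries of these media. In them 73 of the 78 subunit genes had a lower mean, by a median of −0.33 on the log2 scale, against −0.00 over all genes. Both libraries lay below all 4 others in 45 subunit genes (57.7%), against 18.2% of all genes tested. Relative to each gene's mean over the 12 libraries, the median subunit gene stood at −0.22 in library 87 and −0.18 in library 88, while the other 4 libraries of the 2 media lay between 0.06 and 0.15. The median difference was −0.36 in complex I, −0.40 in complex II, −0.21 in complex III, −0.29 in complex IV and −0.33 in complex V. The 2 libraries belong to the first run of library numbers (85 to 88), together with EMEM replicate 1 at −0.14 and Plasmax replicate 1 at 0.02. Counts and called subunit genes that touch Plasmax-TE or Plasmax-TE+Fe are therefore also given without libraries 87 and 88. The 2 libraries were singled out by low values of these same genes. Leaving them out therefore raises most subunit genes in their media by construction, and leaves fewer libraries there. It also tends to narrow the spread that the tests of all comparisons share. Lower p-values and more calls without them follow in part from this choice. The part that the low values of the 2 libraries play in the results was not otherwise tested.

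**Figure D1:**
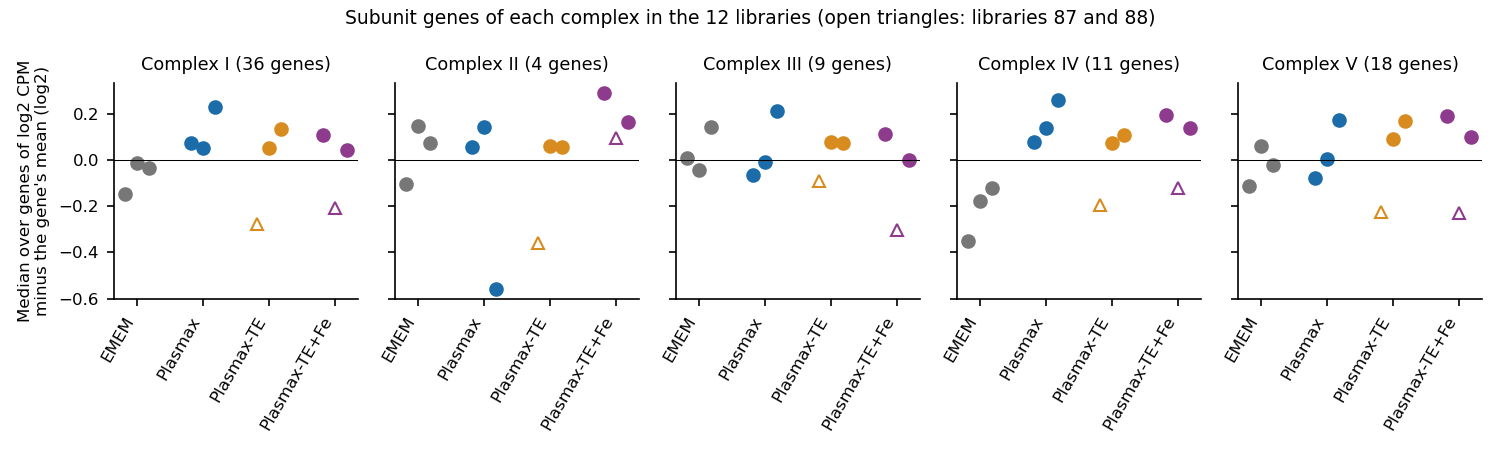
Median over the subunit genes of each complex of log2 CPM minus the gene's mean over the 12 libraries (y axis, log2), by medium (x axis), with 1 point per library and open triangles for libraries 87 and 88. Each triangle is the lowest point of its medium in all 5 complexes. In complex II, Plasmax replicate 3 is the lowest of the 12 libraries at −0.56, and in complex IV only the 3 EMEM points and the triangles lie below 0.

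As context for what the genes share in sequence, promoter windows of RefSeq (build GRCh38.p14, 250 bases before to 50 bases after the transcription start) could be matched for 63 of the 79 genes. Nuclear respiratory factor 1 (NRF1) and the ETS factor GABPA are the transcription factors classically tied to respiratory chain genes, and YY1 is another. A gene counts as holding a motif if any of its windows does, and 9 of the 63 genes had several. The NRF1 motif (GCGCA, any 1 base, then GCGC), searched on both strands like the others, was in 15 of the 63 genes (23.8%). That compares with 14.7% of 8147 genes tested here and 6.98% of 27305 genes in the reference. The ETS motif CCGGAAGT was in 12 genes (19%), against 11.1% of genes tested. The YY1 motif AAGATGGC was in 10 genes (15.9%), against 7.39%. No motif contains another. By complex, the NRF1 letters were in 4 of 7 matched genes of complex III and in 0 of 10 of complex IV. The 120 bases before the start are shown for 6 genes described below, 5′ to 3′ on the gene's strand, with motif letters in capitals. Of them SDHD, UQCRC1 and UQCRFS1 were called in no comparison of edgeR's test with all 12 libraries. The 6 are a selection, so how many of them hold motif letters does not stand for the whole set. SDHD lies at chr11:112086753-112086872 (plus strand), UQCRC1 at chr3:48609647-48609766 (minus), UQCRFS1 at chr19:29213152-29213271 (minus), COX5B at chr2:97645942-97646061 (plus), COX6B1 at chr19:35648203-35648322 (plus) and NDUFB2 at chr7:140696588-140696707 (plus).
SDHD: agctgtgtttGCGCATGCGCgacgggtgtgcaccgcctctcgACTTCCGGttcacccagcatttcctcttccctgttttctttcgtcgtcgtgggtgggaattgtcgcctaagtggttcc
UQCRC1: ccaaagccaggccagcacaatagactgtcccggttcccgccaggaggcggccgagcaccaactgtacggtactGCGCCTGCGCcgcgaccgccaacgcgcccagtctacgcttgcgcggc
UQCRFS1: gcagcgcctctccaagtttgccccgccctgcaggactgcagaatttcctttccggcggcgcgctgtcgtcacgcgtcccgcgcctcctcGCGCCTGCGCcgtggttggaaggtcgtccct
COX5B: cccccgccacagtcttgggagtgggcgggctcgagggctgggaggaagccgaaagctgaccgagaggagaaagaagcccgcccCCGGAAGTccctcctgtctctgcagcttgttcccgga
COX6B1: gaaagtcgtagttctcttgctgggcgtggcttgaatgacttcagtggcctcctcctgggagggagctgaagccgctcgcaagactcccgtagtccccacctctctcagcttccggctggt
NDUFB2: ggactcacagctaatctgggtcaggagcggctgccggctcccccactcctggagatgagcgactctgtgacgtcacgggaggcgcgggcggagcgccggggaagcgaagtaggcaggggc
The SDHD window held NRF1 letters from 110 bases and ETS letters (on the other strand) from 78 bases before the start. NRF1 letters (on the other strand in both) began 47 bases before the start in UQCRC1 and 31 bases before it in UQCRFS1. In COX5B ETS letters began 37 bases before it. COX6B1 and NDUFB2 held none of the 3 motifs in the stretch shown, which says only that these letters were not there.

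Plasmax against EMEM asks how the subunit genes stand in the plasma-like medium relative to the maintenance medium. Of the 78 genes, 12 changed at an adjusted p under 0.05 (quasi-likelihood test of edgeR, Benjamini-Hochberg adjustment over 10459 genes), 10 of them higher and 2 lower in Plasmax. That is 15.4% of the subunit genes, against 21.4% of all genes tested (9.9% higher, 11.5% lower). At this threshold and with all 12 libraries the total share was thus below the background. Their median log2 fold change was 0.14, against −0.01 over all genes, 50 of 78 lay above 0, and the range was −0.74 to 0.95. At an unadjusted p under 0.05 there were 27 of 78, beside 3575 of all 10459 genes, which is about the same share. The called genes were 6 of 36 in complex I, 0 of 4 in complex II, 0 of 9 in complex III, 4 of 11 in complex IV and 2 of 18 in complex V. Windows could be matched for 8 of the 10 genes that rose, of which 1 gene held NRF1 letters, 1 ETS letters and 0 YY1 letters. Leaving out libraries 87 and 88 keeps the groups compared here whole and changes the shared spread, scaling and filter. Since the 2 were picked by values of these genes, more calls without them follow in part from that choice. Without them 25 of 79 were called, 19 of them higher, a share slightly above the 28.2% of all genes. Unless stated otherwise, the adjusted p-values below are from edgeR's test with all 12 libraries.

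**Figure D2:**
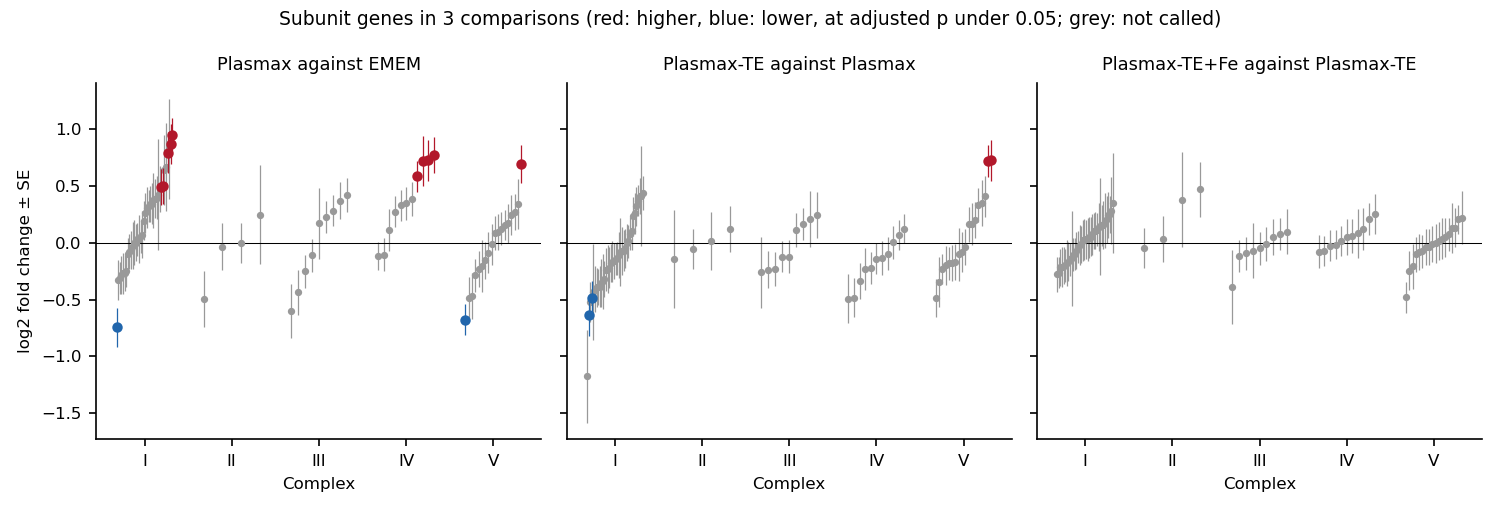
Log2 fold change ± SE (y axis) of each tested subunit gene, ordered by value within complexes I to V (x axis), in 3 comparisons, with called genes in red (higher) or blue (lower). Called genes of Plasmax against EMEM lie in complexes I, IV and V, 4 genes are called in Plasmax-TE against Plasmax, and none in Plasmax-TE+Fe against Plasmax-TE.

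In complex I, the genes that rose code for supernumerary subunits. NDUFA5, a subunit of the peripheral arm, had 78.9, 89.5 and 79.8 CPM in EMEM and 154, 143 and 182 CPM in Plasmax. The groups did not overlap, and the log2 fold change was 0.95 ± 0.15 (SE, adjusted p = 0.00014). NDUFB2, a small subunit of the membrane arm, had 82.8, 93.3 and 84.1 CPM in EMEM and 127, 156 and 193 CPM in Plasmax, higher by 0.87 ± 0.18. NDUFS5, which carries an NDUFS name but no iron-sulfur cluster, had 134, 170.0 and 166 CPM in EMEM and 251, 265 and 300.3 CPM in Plasmax, higher by 0.79 ± 0.18 (adjusted p = 0.0036). For both genes every Plasmax library lay above every EMEM library. NDUFS6, which binds zinc and takes part in late assembly, rose by 0.50 ± 0.16 (adjusted p = 0.028), and NDUFA8, a subunit facing the intermembrane space, by 0.49 ± 0.16 (adjusted p = 0.034). These last 2 were named after their values were seen, and their calls rest on single libraries. For NDUFS6 the adjusted p was 0.106 without EMEM replicate 1, 0.106 without EMEM replicate 3 and 0.126 without Plasmax replicate 3. For NDUFA8 it lay between 0.0543 and 0.136 without any one of EMEM replicates 1, 2 and 3 and Plasmax replicates 1 and 2.

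NDUFC1, a small membrane-arm subunit, went the other way. It had 145, 143 and 143 CPM in EMEM and 95.9, 98.2 and 64.2 CPM in Plasmax, and fell by 0.74 ± 0.17 on the log2 scale (adjusted p = 0.0036). All 3 Plasmax libraries lay below the narrow EMEM range, and the libraries of the other 2 media lay below it as well, at 97.5, 98.0 and 127 CPM in Plasmax-TE and 98.1, 87.4 and 102 CPM in Plasmax-TE+Fe. NDUFA4 had 395, 435 and 444 CPM in EMEM and 518, 555 and 523 CPM in Plasmax. Its groups did not overlap, but its log2 fold change of 0.32 ± 0.14 did not pass (adjusted p = 0.11).

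The 5 complex I genes in the list of iron-sulfur subunits used here stood at −0.09 ± 0.14 (NDUFS1), −0.29 ± 0.17 (NDUFS7), 0.35 ± 0.18 (NDUFS8), −0.06 ± 0.16 (NDUFV1) and 0.67 ± 0.39 (NDUFV2). Their adjusted p-values lay between 0.19 and 0.84. With SDHB and UQCRFS1 of complexes II and III, none of 7 iron-sulfur subunits was called in any comparison, and their median was −0.09.

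In complex IV, 4 of 11 genes rose (36.4%) and none fell, and the median log2 fold change of 0.35 was the highest of the 5 complexes. COX6B1, a subunit on the side of the intermembrane space that joins the dimer, had 149, 184 and 161 CPM in EMEM and 238, 306 and 299 CPM in Plasmax, which is 0.77 ± 0.16 higher on the log2 scale (adjusted p = 0.0017). COX5B, which binds zinc, had 225, 282 and 245 CPM in EMEM and 337, 384 and 409 CPM in Plasmax, higher by 0.59 ± 0.14 (adjusted p = 0.0049). COX7B, a small membrane-spanning subunit, had 105, 130 and 144 CPM in EMEM and 188, 211 and 229 CPM in Plasmax, higher by 0.73 ± 0.18 (adjusted p = 0.0058). The EMEM and Plasmax libraries of these genes did not overlap. COX6C, named after its values were seen, had 212, 245 and 274 CPM in EMEM and 418, 412 and 377 CPM in Plasmax, higher by 0.72 ± 0.22 (adjusted p = 0.024). Its groups did not overlap either, yet it lost the call without EMEM replicate 1 or 2 or Plasmax replicate 1 or 2, at adjusted p between 0.0629 and 0.104.

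The other 7 complex IV genes ran from −0.12 for COX7C to 0.39 for COX6A1. COX4I1, which carries the complex's regulation by adenine nucleotides, had 656, 754 and 726 CPM in EMEM and 660.3, 763 and 886 CPM in Plasmax, and the groups overlapped (0.11 ± 0.18, adjusted p = 0.71). COX7A2 stood at 0.35 ± 0.15 (adjusted p = 0.094) and COX7A2L, a factor that joins complexes III and IV into supercomplexes, at −0.10 ± 0.14. Without libraries 87 and 88 the complex IV count was 7 of 11, all higher, with COX6A1, COX7A2 and COX8A added.

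**Figure D3:**
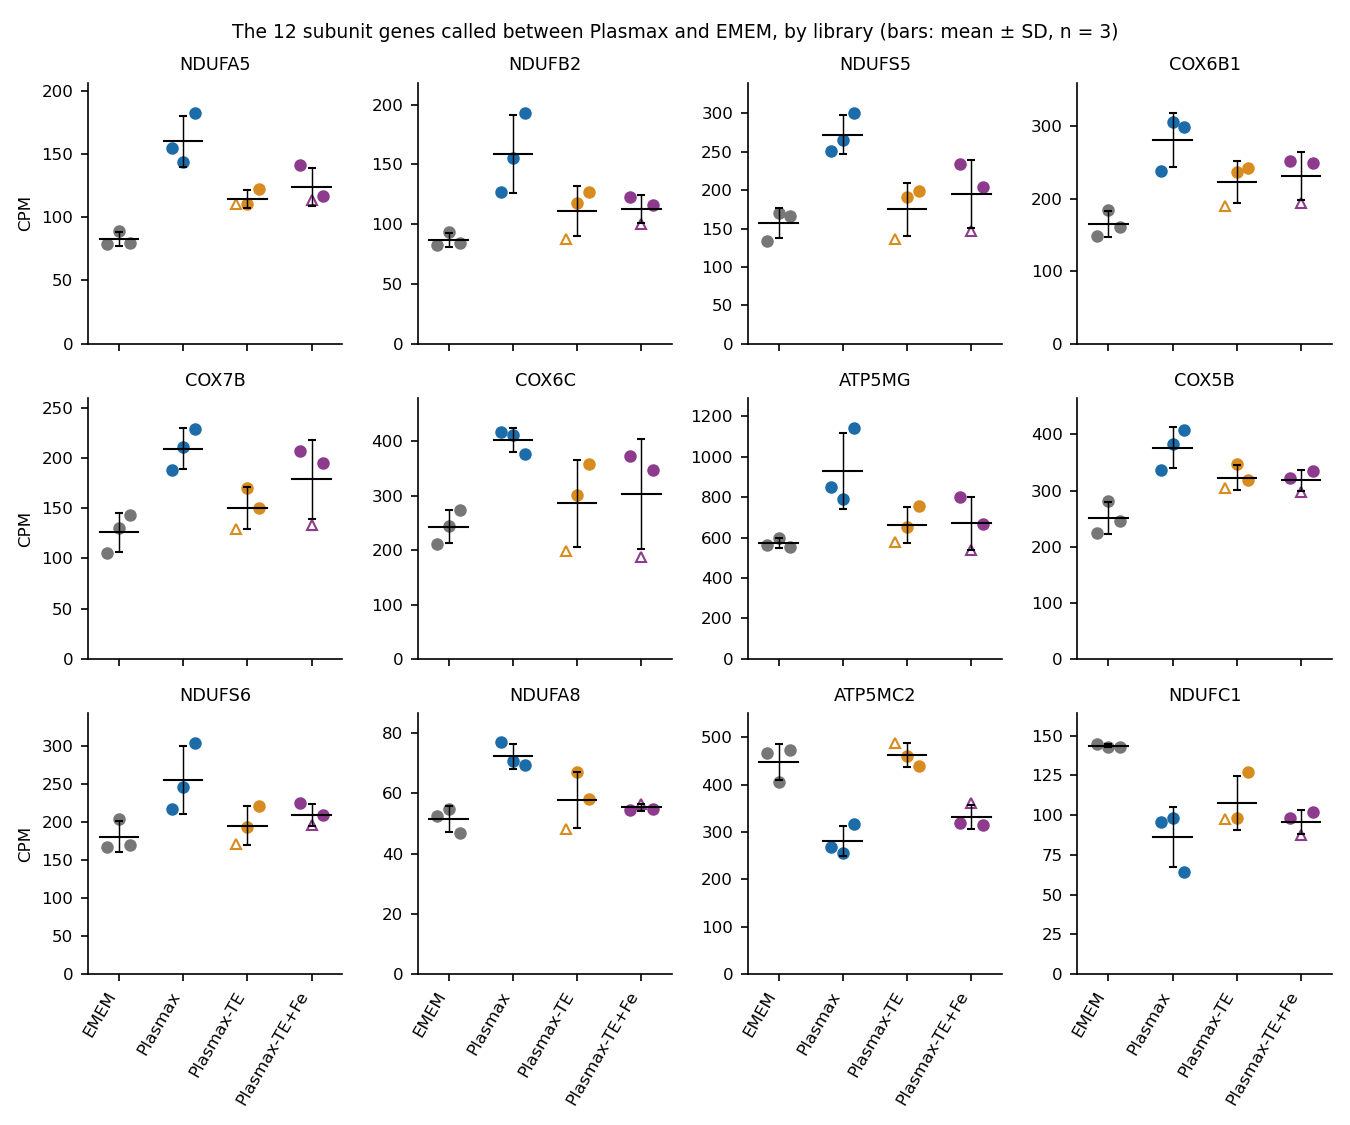
CPM (y axis, from 0) of the 12 subunit genes called between Plasmax and EMEM, with 1 point per library in each medium (x axis), open triangles for libraries 87 and 88, and bars for the mean ± SD (n = 3). In 10 panels the 3 Plasmax points lie above the 3 EMEM points, and in the panels of ATP5MC2 and NDUFC1 they lie below.

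In complex V, ATP5MG, the g subunit of the membrane part, had 565, 599 and 555 CPM in EMEM and 850.3, 790 and 1141 CPM in Plasmax, higher by 0.69 ± 0.17 (adjusted p = 0.0051). ATP5MC2, 1 of 3 genes for the c subunit that forms the rotor ring, had 467, 405 and 472 CPM in EMEM and 269, 256 and 316 CPM in Plasmax, and fell by 0.68 ± 0.14 (adjusted p = 0.0014). Neither pair of groups overlapped. The 3 c subunit genes code for the same mature protein with different import sequences. How well reads from the 3′ ends of their messenger RNA can be told apart was not tested. The other two were not called, at −0.09 ± 0.18 for ATP5MC1 and −0.15 ± 0.16 for ATP5MC3 (adjusted p = 0.77 and 0.54). Among the genes of the catalytic head, set side by side after their values were seen, ATP5F1A (−0.29), ATP5F1B (−0.23), ATP5F1C (−0.47) and ATP5F1D (−0.48) had every Plasmax library below every EMEM library, and ATP5F1E stood at 0.16. None of the 5 was called (ATP5F1D adjusted p = 0.067), but in the fit without libraries 87 and 88 ATP5F1C (−0.47, adjusted p = 0.0171) and ATP5F1D (−0.48, adjusted p = 0.0419) were. Non-overlapping libraries were common, with 42 of 78 subunit genes, a larger share than the 39.6% of all genes.

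Complexes II and III held no called gene between Plasmax and EMEM in edgeR's test, with 0 of 4 and 4 of 9 at an unadjusted p under 0.05, beside the 3575 of 10459 over all genes. DESeq2 called UQCR10 (0.43, adjusted p = 0.0423), a small complex III subunit, beside the same 12 genes, and in edgeR it was at 0.42 ± 0.15 (adjusted p = 0.052). UQCRC1, a core subunit of complex III with no redox centre, had 190.0, 164 and 184 CPM in EMEM and 93.4, 115 and 145 CPM in Plasmax. The groups did not overlap, and its log2 fold change was −0.60 ± 0.24 (adjusted p = 0.082). UQCRFS1, the Rieske iron-sulfur protein, had 61.0, 53.7 and 69.9 CPM in EMEM and 46.4, 38.1 and 51.7 CPM in Plasmax, at −0.44 ± 0.20 (adjusted p = 0.13). Without libraries 87 and 88 both passed (adjusted p = 0.0032 and 0.0492). The 2 libraries are not in the groups compared here, but their values entered the shared spread. Lower p-values without them follow in part from how they were picked. UQCRB, a subunit that binds coenzyme Q, was at 0.28 ± 0.14 (adjusted p = 0.16).

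In complex II, SDHB, the iron-sulfur subunit, had 32.1, 31.1 and 36.4 CPM in EMEM and 27.0, 31.0 and 13.5 CPM in Plasmax (−0.49 ± 0.25, adjusted p = 0.16). SDHD, a heme-binding membrane anchor, had 7.06, 11.1 and 13.7 CPM in EMEM and 20.1, 17.0 and 2.79 CPM in Plasmax. Plasmax replicate 3 was the lowest of the 12 libraries for both genes, and SDHD rested on between 6 and 44 counts per library. The other heme-binding anchor, SDHC, had 121, 126 and 109 CPM in EMEM and 127, 126 and 104 CPM in Plasmax, with overlapping groups and a log2 fold change of 0.00 ± 0.18. NDUFB3 of complex I, noticed after its values were seen, showed the same library as an exception, with 89.1, 112 and 28.4 CPM in Plasmax. NDUFV2 showed it in the other direction, with 10.0, 9.51 and 23.7 CPM.

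Plasmax-TE against Plasmax asks what removing the trace elements does, and it shares the 3 Plasmax libraries with the comparison above, so the values of the 2 comparisons are not independent. In edgeR's test 4 of 78 subunit genes changed (5.13%), 2 higher and 2 lower in Plasmax-TE, against 11.2% of all genes tested (5.61% higher, 5.63% lower). The libraries did not overlap in 19 subunit genes (all genes 30.5%). The median log2 fold change was −0.12, against 0.02 over all genes, and 28 of 78 lay above 0. Leaving out libraries 87 and 88 gave a median of −0.04 and 8 called genes, 7 of them higher (all genes 11%). With the run of library numbers as a block the median was −0.13 and 16 were called, 5 higher and 11 lower (all genes 17.8%). Scaling by library size alone gave 2 higher and 4 lower. The balance of directions therefore turned with the scaling and with how the 2 libraries were treated. The count was 1 without Plasmax replicate 2, 2 if either Plasmax replicate 3 or library 87 was left out, and 9 when library 88 was. Over all genes, leaving out 1 library gave between 477 and 1577 called, so the swing is not particular to the subunit genes.

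Both genes that rose belong to the ATP synthase. ATP5MC2 had 269, 256 and 316 CPM in Plasmax and 489, 461 and 439 CPM in Plasmax-TE, higher by 0.72 ± 0.14 (adjusted p = 0.0021). Its Plasmax-TE and EMEM libraries overlapped (0.05 ± 0.14 between them, adjusted p = 0.90), and the rise was 0.68 without libraries 87 and 88 (adjusted p = 0.00161). ATP5F1D, the delta subunit of the central stalk, had 29.5, 31.5 and 34.9 CPM in Plasmax and 49.8, 51.7 and 58.2 CPM in Plasmax-TE, higher by 0.73 ± 0.18 (adjusted p = 0.014), and by 0.77 without libraries 87 and 88 (adjusted p = 0.0097). The groups did not overlap, and the call was lost without Plasmax replicate 1, Plasmax replicate 2 or Plasmax-TE replicate 3 (adjusted p = 0.0531, 0.0713 and 0.0527). When libraries 87 and 88 were left out, ATP5F1A (0.44), ATP5F1C (0.50) and ATP5MC1 (0.55) were called as well, which made 5 of 19 complex V genes higher and none lower. Beside them NDUFB1 (0.43) and NDUFV3 (0.48) of complex I were called higher. That fit has fewer Plasmax-TE libraries, and library 87 was singled out for low subunit values. The upward shift of these genes is therefore partly built into the fit. ATP5F1A, ATP5F1C, NDUFB1 and NDUFV3 were named after their values were seen.

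**Figure D4:**
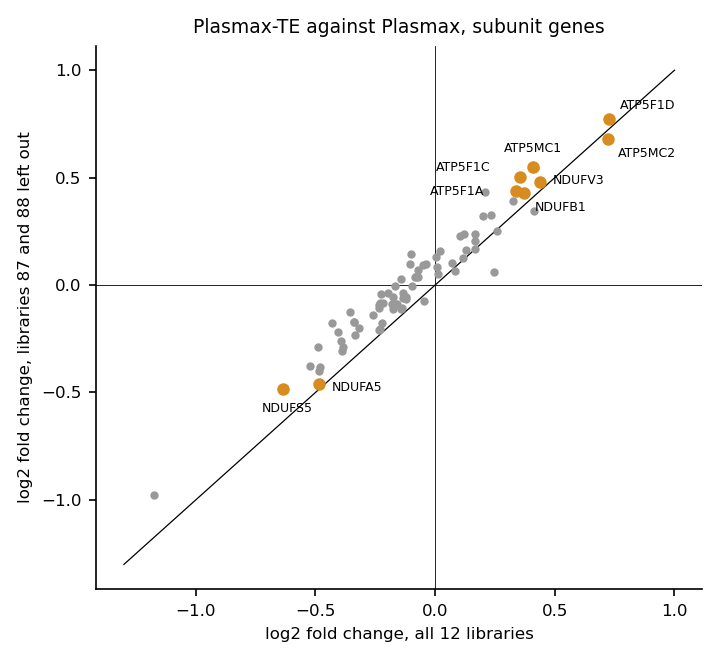
Log2 fold change of Plasmax-TE against Plasmax for each subunit gene with all 12 libraries (x axis) and with libraries 87 and 88 left out (y axis), with a line of equal values and genes called in either fit in orange. Of 78 points tested in both, most lie above the line, and the orange points at the upper right are ATP synthase genes together with NDUFV3 and NDUFB1. Library 87 was singled out for low subunit values, so the shift above the line largely follows from leaving it out.

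The genes that fell belong to complex I. NDUFS5 had 251, 265 and 300.3 CPM in Plasmax and 136, 191 and 199 CPM in Plasmax-TE, and fell by 0.64 ± 0.18 (adjusted p = 0.027). NDUFA5 had 154, 143 and 182 CPM in Plasmax and 110.5, 110.1 and 122 CPM in Plasmax-TE, and fell by 0.48 ± 0.15 (adjusted p = 0.039). Their groups did not overlap. In the fit without libraries 87 and 88, NDUFS5 stood at −0.49 (adjusted p = 0.0302) and NDUFA5 at −0.46 (adjusted p = 0.0524). NDUFS5 lost the call without Plasmax replicate 2, Plasmax replicate 3 or Plasmax-TE replicate 1 (adjusted p = 0.0752, 0.0784 and 0.113). NDUFA5 lost it without any one of 8 libraries, EMEM replicates 1 and 3 and every Plasmax and Plasmax-TE library (adjusted p between 0.0532 and 0.124). NDUFB2 was at −0.52 ± 0.17 (adjusted p = 0.057), COX7B at −0.48 ± 0.18 (0.082), COX6B1 at −0.33 ± 0.16 (0.18), COX5B at −0.22 ± 0.14 (0.33) and ATP5MG at −0.49 ± 0.16 (0.062), with adjusted p in parentheses.

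Among the iron and heme subunits NDUFV2, which holds an iron-sulfur cluster at the tip of complex I, had the widest difference. It had 10.0, 9.51 and 23.7 CPM in Plasmax and 4.33, 4.50 and 10.9 CPM in Plasmax-TE, on 8 to 51 counts per library. The groups overlapped, and the log2 fold change of −1.17 ± 0.41 did not pass (adjusted p = 0.070), although it did with the run of library numbers as a block (adjusted p = 0.0404). The remaining differences were −0.14 ± 0.14 for NDUFS1, 0.23 ± 0.17 for NDUFS7, −0.17 ± 0.18 for NDUFS8 and 0.10 ± 0.16 for NDUFV1. They were 0.02 ± 0.25 for SDHB, 0.25 ± 0.20 for UQCRFS1, −0.05 ± 0.18 for SDHC and −0.14 ± 0.43 for SDHD. None of the 9 was called, and the median of the 7 iron-sulfur genes was 0.02, equal to that of all genes.

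Plasmax-TE+Fe against Plasmax-TE asks what iron alone does in a medium without the trace elements. In edgeR's test 0 of 78 subunit genes were called, against 0.258% of all genes (0.0861% higher, 0.172% lower), and DESeq2 called 0 as well. At an unadjusted p under 0.05 there was 1 of 78, beside 974 of all 10459 genes. The median log2 fold change was 0.02, against 0.00 over all genes, and the range was −0.48 to 0.47. The count was again 0 without libraries 87 and 88, with a median of 0.01. With the run of library numbers as a block it was 1 (all genes 1.45%). These libraries do not show that the genes stayed level, since SEs ran from 0.13 to 0.44.

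The lowest value was that of ATP5MC2, with 489, 461 and 439 CPM in Plasmax-TE and 320.0, 362 and 315 CPM in Plasmax-TE+Fe. The groups did not overlap, and the difference of −0.48 ± 0.14 (95% interval −0.75 to −0.21) did not pass over all genes (adjusted p = 0.17). With the run of library numbers as a block it did (−0.48, adjusted p = 0.0414). ATP5MC2 thus stood in the order Plasmax-TE, EMEM, Plasmax-TE+Fe and Plasmax by mean CPM, at 463 ± 25, 448 ± 38, 332 ± 26 and 280.5 ± 32 (SD, n = 3). EMEM and Plasmax-TE overlapped, EMEM and Plasmax-TE+Fe did not (−0.43 ± 0.14 between them, adjusted p = 0.051), and Plasmax-TE+Fe and Plasmax overlapped at their edge (0.24 ± 0.14, adjusted p = 0.46). ATP5MC1 had 128, 194 and 163 CPM in Plasmax-TE and 178, 175 and 181 CPM in Plasmax-TE+Fe (0.13 ± 0.17), and ATP5MC3 stood at −0.04 ± 0.16.

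**Figure D5:**
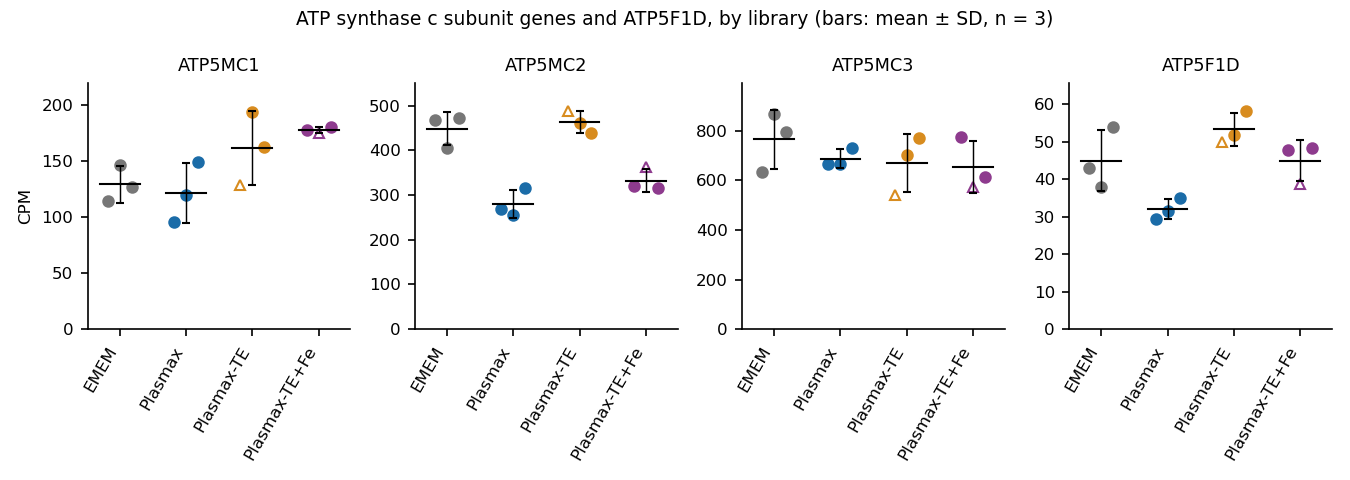
CPM (y axis, from 0) of the 3 c subunit genes and ATP5F1D by medium (x axis), with 1 point per library, open triangles for libraries 87 and 88 and bars for the mean ± SD (n = 3). ATP5MC2 lies high in EMEM and Plasmax-TE and low in Plasmax and Plasmax-TE+Fe, ATP5F1D is lowest in Plasmax, and the ATP5MC3 groups overlap.

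Of the iron and heme subunits SDHB alone had groups that did not overlap, with 19.0, 27.0 and 25.5 CPM in Plasmax-TE and 34.4, 29.8 and 35.3 CPM in Plasmax-TE+Fe. Its difference was 0.47 ± 0.24 (95% interval −0.00 to 0.95, adjusted p = 0.57). Non-overlap occurred in 7 of 78 subunit genes and 13.2% of all genes. NDUFS1 (−0.03 ± 0.14), NDUFS7 (0.11 ± 0.16), NDUFS8 (0.08 ± 0.18), NDUFV1 (−0.01 ± 0.16), UQCRFS1 (0.10 ± 0.20) and SDHC (−0.04 ± 0.18) lay near 0, with 95% intervals that together ran from −0.39 to 0.49. For the thinly counted NDUFV2 (0.35 ± 0.44) and SDHD (0.38 ± 0.42) the intervals reached 1.21 and 1.20, so rises up to that size were not excluded.

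The remaining comparisons share libraries with those above. In Plasmax-TE+Fe against Plasmax, 0 of 78 were called by edgeR (DESeq2 0, all genes 1.2%, 0.507% higher and 0.698% lower). At an unadjusted p under 0.05 there were 9, beside 1420 of all 10459 genes. The median was −0.09, and 0.02 with 0 called when libraries 87 and 88 were left out. ATP5MC1 had 95.3, 120.2 and 149 CPM in Plasmax, and every Plasmax-TE+Fe library lay above these (0.54 ± 0.18, adjusted p = 0.16). With the run of library numbers as a block 4 were called (all genes 3.56%), ATP5MC1 higher (0.56, adjusted p = 0.0323) and NDUFB2, NDUFS5 and ATP5MG lower. In Plasmax-TE against EMEM, 0 of 78 were called by edgeR (DESeq2 0, all genes 4.81%), with 7 at an unadjusted p under 0.05, beside 1975 of all 10459 genes. NDUFA5 was at 0.46 ± 0.15 (adjusted p = 0.091). The block called 4, all higher (all genes 7.93%), namely NDUFA5 (adjusted p = 0.0366), COX6B1, COX5B and COX8A, and the fit without libraries 87 and 88 called COX6B1 alone (0.54, adjusted p = 0.0234, all genes 6.16%). In Plasmax-TE+Fe against EMEM, 3 were called (3.85%), 2 higher and 1 lower, against 9.65% of all genes (3.67% higher, 5.98% lower). The libraries did not overlap in 16 subunit genes (all genes 28.9%), and library size alone gave 4 higher and 0 lower. NDUFA5, with 141, 114 and 117 CPM in Plasmax-TE+Fe, was higher by 0.58 ± 0.15 (adjusted p = 0.017), COX7A2, with 157, 181 and 165 CPM in EMEM and 251, 200.5 and 242 CPM in Plasmax-TE+Fe, by 0.46 ± 0.14 (adjusted p = 0.047), and NDUFC1 fell by 0.58 ± 0.17 (adjusted p = 0.030). All 3 calls were lost, and none gained, without EMEM replicate 1, EMEM replicate 3 or Plasmax-TE+Fe replicate 1, and the count was 1 without EMEM replicate 2 or Plasmax-TE+Fe replicate 3. It was 5 without Plasmax replicate 3, library 87 or library 88. Over all genes, between 606 and 1224 were called with 1 library left out. The subunit count was 11 without libraries 87 and 88, of them 9 higher (all genes 14.1%), with 4 of 11 genes in complex IV. NDUFA5 then stood at 0.64, COX7A2 at 0.56 and NDUFC1 at −0.52, all called. With the block it was 9 (all genes 15%).

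Over the 4 media together, edgeR's test called 10 subunit genes (12.8%), against 18% of all genes. They were NDUFA5, NDUFB2, NDUFS5 and NDUFC1 of complex I, COX5B, COX6B1 and COX7B of complex IV, and ATP5MC2, ATP5MG and ATP5F1D of complex V. The 7 of these that rose in Plasmax against EMEM all had their lowest mean CPM in EMEM and their highest in Plasmax. NDUFC1 had the reverse order, with 144 CPM in EMEM and 86.1 CPM in Plasmax. These genes were picked by their difference between Plasmax and EMEM in the same libraries, so such orders follow in part from that choice.

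Other genes of the pathway are described by their counts, to be read against the 21.4% of all genes called in Plasmax against EMEM (9.9% higher, 11.5% lower) and the 11.2% called in Plasmax-TE against Plasmax. Of 18 assembly factors of complex I, which build it, 3 rose and 2 fell in Plasmax against EMEM, with a list median of 0.22. The 3 were NDUFAF4 (0.66 ± 0.19), TIMMDC1 (0.46 ± 0.15) and NDUFAF5 (0.76 ± 0.25). Each of them lost its call without some single libraries (adjusted p up to 0.0957, 0.116 and 0.12). ECSIT fell from 27.5 ± 3.2 to 12.4 ± 3.7 CPM (SD, n = 3, −1.14 ± 0.25, adjusted p = 0.0028) and COA1 from 27.0 ± 1.0 to 14.6 ± 1.6 CPM (−0.89 ± 0.21, adjusted p = 0.0043), and both calls held when any 1 library was left out. In Plasmax-TE against Plasmax, 2 of 18 rose and 3 fell, with a list median of 0.10. The 2 were ECSIT, by 1.01 ± 0.25 (adjusted p = 0.015), and COA1, by 0.76 ± 0.21 (adjusted p = 0.025). ECSIT lost that call without Plasmax replicate 1 or Plasmax-TE replicate 3, and COA1 without Plasmax replicate 2 or 3 or Plasmax-TE replicate 2 or 3 (adjusted p up to 0.0662 and 0.0921). Without libraries 87 and 88 they stood at 1.18 and 0.79 and were called. The 3 that fell were NDUFAF5 (−0.89 ± 0.25), TMEM186 (−0.68 ± 0.20) and TMEM126B (−0.80 ± 0.26). Each of these lost its call without some single libraries (adjusted p up to 0.12, 0.132 and 0.15). DMAC1 was higher than in EMEM in Plasmax-TE+Fe (0.87 ± 0.20, adjusted p = 0.0084), a call that held when any 1 library was left out. In Plasmax-TE it was also higher (0.75 ± 0.20, adjusted p = 0.038), but lost the call without any one of 5 libraries.

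Of 4 complex II factors, SDHAF1, which helps to put iron-sulfur clusters into SDHB, fell from 22.6 ± 3.0 to 11.8 ± 3.5 CPM in Plasmax (−0.95 ± 0.26, adjusted p = 0.011). The adjusted p was 0.0828 without Plasmax replicate 2. It was also below EMEM in Plasmax-TE (−1.16 ± 0.26, adjusted p = 0.011), where it stood at −1.14 without libraries 87 and 88, and in Plasmax-TE+Fe (−0.79 ± 0.25, adjusted p = 0.049), and the last call was lost without libraries 87 and 88 (−0.65, adjusted p = 0.109). No other complex II factor was called in any comparison.

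Of 6 complex III factors, 2 rose and 0 fell in Plasmax against EMEM. BCS1L rose by 0.91 ± 0.32 (adjusted p = 0.046) with overlapping groups, and lost the call without any one of 7 libraries. UQCC2, which acts on the mitochondrially made subunit cytochrome b, rose from 45.6 ± 4.7 to 89.2 ± 7.2 CPM in Plasmax (0.97 ± 0.19, adjusted p = 0.0010). In Plasmax-TE it was lower than in Plasmax (−0.76 ± 0.19, adjusted p = 0.013), with an adjusted p of 0.0563 without Plasmax replicate 2. Without libraries 87 and 88 it stood at −0.71 and was called. Of 25 complex IV factors, COX14, which acts on the first core subunit of the enzyme, was the only one called between Plasmax and EMEM. It had 54.0 ± 3.8 CPM in EMEM and 131 ± 32 CPM in Plasmax (1.28 ± 0.17, adjusted p = 2.8e-05). In Plasmax-TE, COX14 (−0.61 ± 0.17) and COX20 (−0.78 ± 0.22) were lower and COA6 (0.68 ± 0.18) was higher than in Plasmax, and all 3 were still called without libraries 87 and 88, at −0.59, −0.59 and 0.63. COX14 lost the call without Plasmax replicate 3 or Plasmax-TE replicate 1 or 2, COX20 without Plasmax replicate 2 or 3 or Plasmax-TE replicate 1, and COA6 without Plasmax replicate 2 or 3 or Plasmax-TE replicate 1 or 3 (adjusted p up to 0.115, 0.106 and 0.0792). Of 4 complex V factors 1 was called, TMEM70, which rose in Plasmax by 0.65 ± 0.22 with overlapping groups and lost the call without any one of 7 libraries.

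Among 7 electron carriers and further subunits, CYCS, which codes for cytochrome c, rose from 83.5 ± 5.3 to 123 ± 9.4 CPM in Plasmax (0.55 ± 0.17, adjusted p = 0.028). It lost the call without any one of EMEM replicates 1, 2 and 3 and Plasmax replicates 1 and 2 (adjusted p up to 0.0982). ETFB, a subunit of the electron transfer flavoprotein, was lower in Plasmax-TE than in Plasmax (−0.77 ± 0.20, adjusted p = 0.019), by −0.53 without libraries 87 and 88 (adjusted p = 0.0118). It lost the call without Plasmax replicate 3 or Plasmax-TE replicate 1 (adjusted p up to 0.0705). ETFDH, which passes the flavoprotein's electrons to coenzyme Q and was named after its values were seen, was higher (1.18 ± 0.37, adjusted p = 0.043), from 3.54 ± 0.96 to 8.04 ± 1.1 CPM. It lost the call without libraries 87 and 88 (1.12, adjusted p = 0.0897) and without any one library but Plasmax-TE+Fe replicate 2. DHODH, which feeds electrons from pyrimidine synthesis to coenzyme Q, was higher than in EMEM in Plasmax-TE+Fe (1.19 ± 0.29, adjusted p = 0.012), by 0.82 without libraries 87 and 88 (adjusted p = 0.0447). It lost the call without EMEM replicate 2 or Plasmax-TE+Fe replicate 2 (adjusted p up to 0.0685). In Plasmax-TE it was higher than in EMEM by 1.05 ± 0.29 (adjusted p = 0.043), not called without libraries 87 and 88 (0.89, adjusted p = 0.0529).

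Of 12 genes for coenzyme Q, 3 fell and 0 rose in Plasmax against EMEM, where 11.5% of all genes fell. COQ8A fell from 95.1 ± 13 to 55.2 ± 6.3 CPM (−0.79 ± 0.16) and COQ10A from 24.9 ± 2.5 to 10.5 ± 4.9 CPM (−1.19 ± 0.27), and both calls held when any 1 library was left out. COQ10A was higher in Plasmax-TE than in Plasmax (1.04 ± 0.27, adjusted p = 0.018), by 0.94 without libraries 87 and 88, and lost that call without Plasmax replicate 1 or 2 or Plasmax-TE replicate 1 (adjusted p up to 0.0878). COQ5, at −0.82 ± 0.25, lost its call without EMEM replicate 1 or 3 or Plasmax replicate 2 or 3 (adjusted p up to 0.119). Of 15 regulators of mitochondrial gene expression, TFAM, which packages mitochondrial DNA, and TFB1M rose in Plasmax by 0.54 ± 0.18 and 0.61 ± 0.20 (adjusted p = 0.034 and 0.038). TFB1M lost the call without any one of the 6 libraries compared, and TFAM without any one of them but Plasmax replicate 3 (adjusted p up to 0.127 and 0.16).

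Of 73 mitochondrial ribosome genes, 8 rose and 4 fell in Plasmax, with a median of 0.01, beside 21.4% called over all genes. MRPS10 rose by 0.99 ± 0.14 and MRPL52 by 0.72 ± 0.14, and MRPS15 fell by 0.93 ± 0.18 (adjusted p = 5.8e-05, 0.0010 and 0.0011), and these calls held when any 1 library was left out. Of 13 citric acid cycle genes, IDH3A alone was called in Plasmax (0.58 ± 0.20, adjusted p = 0.041), a call lost without any one of 6 libraries. In each of these lists edgeR called 0 genes between Plasmax-TE+Fe and Plasmax-TE, where 0.258% of all genes were called.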

How the data were processed

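The authors deposited raw counts for 12 QuantSeq 3′ libraries made from total RNA. The submitters' processing notes list STAR 2.7.5b, featureCounts 1.6.3, limma 3.40.6, FastQC 0.72 and cutadapt 1.16, and the build hg19 (GRCh37). The annotation and the strand setting are not given in the sources used here. Of 10994 entries, 54 repeated an Ensembl identifier and were dropped. Gene positions on hg19 are not given, since the reference used here is on GRCh38.p14, the build of the promoter windows. Counting of 3′ ends carries little length effect, but levels are not compared between genes beyond naming the highest CPM of a complex.

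Counts were filtered with filterByExpr (minimum count 10, minimum total 15; 10459 genes left) and fitted in R 4.3.3 with edgeR 4.0.16, TMM factors and 1 quasi-likelihood model of 4 media (8 residual degrees of freedom), in two-sided tests. Genes at a Benjamini-Hochberg adjusted p under 0.05 over all genes were called. SEs are log2 fold changes over √F, without sign, and 95% intervals are ±1.96 SE. An exact permutation test of 3 against 3 cannot go below 0.1. As alternatives, DESeq2 1.42.0, library size alone, RLE factors, 2 other low-count filters, blocks (replicate number, run of library numbers), left-out libraries and fits of the 6 libraries compared were tried.

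Members, lists and alternatives were chosen with earlier results of these data known. Named are up to 6 called members per direction and comparison with the lowest p, per complex the 2 with the lowest p over the 4 media and the one with the highest CPM, iron-sulfur and heme subunits, paralogs, and up to 3 genes per list by p over the 4 media. Exceptions are marked in the text, except genes whose values only complete a set. A result on 1 further list of complex I subunits is not reported here.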

Additional observations from a re-analysis of the deposited data

How the results depend on the processing

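No called subunit gene changed direction under any alternative. The medians of the 6 comparisons, not computed for DESeq2, moved by less than the spread between replicates. That spread is of the library medians of these same genes and includes libraries 87 and 88, which widen it, so the limit is loose. Of the medians, 3 that lay near 0 crossed it (−0.08 to 0.12 in Plasmax-TE+Fe against Plasmax-TE, −0.17 to 0.02 in Plasmax-TE+Fe against Plasmax, −0.01 to 0.14 in Plasmax-TE+Fe against EMEM). Called in all 21 alternatives were NDUFA5, NDUFB2, NDUFC1, NDUFS5, COX5B, COX6B1, COX7B, ATP5MC2 and ATP5MG in Plasmax against EMEM and ATP5MC2 in Plasmax-TE against Plasmax. With the run of library numbers as a block, the count was 17 over the 4 media, 22 in Plasmax against EMEM (all genes 27.8%), 16 in Plasmax-TE against Plasmax (17.8%), 1 in Plasmax-TE+Fe against Plasmax-TE (1.45%), 4 in Plasmax-TE+Fe against Plasmax (3.56%), 4 in Plasmax-TE against EMEM (7.93%) and 9 in Plasmax-TE+Fe against EMEM (15%), so the share of all genes called rose as well. Without libraries 87 and 88 the count was 18 over the 4 media and 25 in Plasmax against EMEM (all genes 28.2%). It was 8 in Plasmax-TE against Plasmax (11%), 1 in Plasmax-TE against EMEM (6.16%) and 11 in Plasmax-TE+Fe against EMEM (14.1%). Library size alone gave 20 in Plasmax against EMEM (18 higher) and 2 in Plasmax-TE against EMEM, and DESeq2 gave 5 in Plasmax-TE+Fe against EMEM. The shares of all genes in these fits are not given here, so the counts alone show nothing particular to the subunit genes. The cause of the changes in counts was not tested. Leaving out 1 library gave 4 to 12 over the 4 media (4 without EMEM replicate 1, 6 without EMEM replicate 3), beside 1275 to 2465 of all genes. It gave 10 to 16 in Plasmax against EMEM (all genes 1489 to 2642) and 1 to 9 in Plasmax-TE against Plasmax (477 to 1577). In Plasmax-TE+Fe against EMEM it gave 0 to 5 (606 to 1224), and 0 in the other 3 comparisons. The counts over all genes thus moved as well.

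Replicate numbers follow the runs of library numbers in EMEM, Plasmax and Plasmax-TE but not in Plasmax-TE+Fe. Same-numbered libraries had correlations of deviations between −0.43 and 0.17, above 0.1 in 4 of 18 pairs. By replicate number, all 3 pairs passed 0.1 only between EMEM and Plasmax-TE (0.11 to 0.17), where the replicate block changed no subunit call. Elsewhere the numbers were not taken to pair the libraries. With the replicate block the counts were 10 over the 4 media, 12 in Plasmax against EMEM, 4 in Plasmax-TE against Plasmax and 2 in Plasmax-TE+Fe against EMEM, and 0 elsewhere. The shares of all genes called with the replicate block are not given here. In Plasmax-TE against Plasmax this block kept 3 of the calls, lost NDUFA5 (adjusted p = 0.0576) and added NDUFV2 (adjusted p = 0.0458). Libraries of the same run had correlations between 0.03 and 0.53, above 0 in 18 of 18 pairs and above 0.1 in 9. They were highest between Plasmax-TE and Plasmax-TE+Fe (0.53, 0.22 and 0.38), so the main test without a block leaves this shared part in the spread. Depth limits genes of a few CPM such as NDUFA7 (4 to 13 counts per library), NDUFV2 and SDHD.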
